A study of Mus musculus with 12 samples.

Results

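The cytosolic ribosomal protein genes were followed across whole brains of mouse embryos. They were taken from the gene count table by symbol (Rpl or Rps with a number, or Rplp with a number) and by the annotation as protein coding, with 1 row per Ensembl gene ID. The rule found 84 genes among 40690 gene IDs, of which 53 are named for proteins of the large subunit, stalk included, and 31 for proteins of the small subunit. Another 4 IDs matched the symbol pattern without being annotated as protein coding and were left out. Of the 84 genes, 79 passed the filter on low counts and were tested among 16002 genes.

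Polyadenylated RNA was sequenced from 12 C57BL/6J embryos at embryonic day 14.5, 3 in each of 4 groups. LC1 knockout embryos (7, 22 and 71), in which the non-coding element LC1 is knocked out, were compared with LC1 wild types (6, 26 and 73), and all 6 were female. RKI homozygous embryos (A1, A10 and A18), which carry a human variant knocked in on both alleles, were compared with RKI wild types (A2, A9 and A16). Each RKI group held 2 males and 1 female (A10 among the homozygotes, A9 among the wild types). The labels match embryos by sex and litter without naming the litters, and they name no promoter, Cre or number of founder lines. Each library is 1 embryo.

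The cytosolic ribosome joins a small subunit, which reads the mRNA, and a large subunit, which forms the peptide bond. Its proteins are made in matched amounts, and their mRNAs belong to the class with a terminal oligopyrimidine tract, a C followed by pyrimidines at the first base, through which mTOR signalling controls their translation. In the developing forebrain, dividing progenitors have a high demand for ribosomes, and most ribosomal protein genes have many processed pseudogenes in the genome.

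The start sites were searched for this class feature. RefSeq promoters (GRCm38.p6) were matched for 63 of the 84 genes, and 13 of the 63 (20.6%) start with C and at least 4 further pyrimidines, against 813 of 27025 genes with a promoter in the table (3.01%). The letters CCGGAAG, a core bound by ETS-family factors, or CTTCCGG, the same on the other strand, were found within the window of 250 bases before to 50 bases after the start in 25 of the 63 (39.7%) and in 2683 of the 27025 (9.93%). A match is a description of the letters and not a site. The windows of Rps6, a target of S6 kinase, of Rpl15, Rpl28 and Rpl38, which recur in the comparisons below, and of the stalk gene Rplp2 are printed from 20 bases before the start to 10 bases from it. All of these genes are among the 13 with such a start, so the windows show the feature and not how common it is. Rpl5, Rpl11, Rpl22, Rpl31, Rps7 and the stalk gene Rplp0, which are also described below, gave no match at their annotated starts. The search read only from the exact annotated base, so a start used a few bases away is not seen. A gene without a match may therefore still carry the tract. Capitals mark the pyrimidine run at the start.
Rps6 (chr4:86857358-86857387, minus strand): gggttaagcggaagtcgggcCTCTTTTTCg
Rpl28 (chr7:4792945-4792974, plus strand): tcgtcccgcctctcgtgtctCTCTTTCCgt
Rpl38 (chr11:114668560-114668589, plus strand): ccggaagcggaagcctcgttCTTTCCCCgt
Rplp2 (chr7:141447631-141447660, plus strand): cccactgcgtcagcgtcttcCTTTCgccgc
Rpl15 (chr14:18270977-18271006, minus strand): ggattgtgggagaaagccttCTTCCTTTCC

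Library totals ran from 18192984 to 26566769 counts. The tissue label was checked on neuronal and progenitor markers, all of which were detected in every library, with Tubb3, a neuronal tubulin, at 2411 to 3164 CPM and Sox2, a progenitor transcription factor, at 94.2 to 115 CPM (counts scaled to a common library size with TMM factors). The genotypes were not checked, because LC1 is no gene and has no row in the table. One library stood apart in the genes described here. In LC1 wild type 6 they took 1.15% of all gene counts, against 0.863% to 1.002% in the other 11 libraries. In the deposited transcript estimates they took 3.15% in this library, against 2.57% to 2.91% in the others.

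On the deposited RPKM scale, which divides by gene length, the 84 genes ran from not detected to 1131 RPKM. Among the highest were Rplp1 with 1131 ± 138 RPKM, Rpl8 with 893 ± 68.9 RPKM, Rplp0 with 627 ± 66.8 RPKM, Rpl4 with 482 ± 29.7 RPKM and Rps15 with 454 ± 34.4 RPKM (SD over 12 libraries). The ranges of Rpl4 (444 to 545 RPKM) and Rps15 (404 to 531 RPKM) overlapped, and the genes were not compared within libraries. Rplp2, the other stalk partner of Rplp1, averaged 23.5 RPKM. Rplp0, Rplp1 and Rplp2 belong to the stalk that recruits elongation factors, and Rpl8 lies near the peptidyl transferase centre. The 5 lowest were Rpl24 with 0.44 RPKM, Rpl39l with 0.09 RPKM, Rpl3l and Rpl6l with 0.01 RPKM each, and Rpl10l, which had no count in any library. The 5 genes with the highest CPM held 41.3% of the summed CPM of all 84, and the top 10 held 61.7%. At the other end 32 of the 84 genes had a mean under 10 CPM and 12 had a mean under 1 CPM.

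Deposited levels near 0, such as those of Rpl24 or Rps27, were set against the second deposited measure, the transcript estimates. Rps27, a small-subunit protein with a zinc finger, had 5.67 gene counts per library (2 to 14), against 11445 estimated counts for its transcripts. Rpl19 had 12.2 gene counts against 16332 estimated, and Rps6 had 36.1 against 609. Over all 84 genes the median gene count was 27.1% of the estimate, and 66 of the 84 lay under 50%. Over 12113 other protein-coding genes with an estimate of at least 100, the median was 97.9%. The levels given here are those of the deposited gene table, and the order of the genes depends on which deposited table is read.

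**Figure D1:**
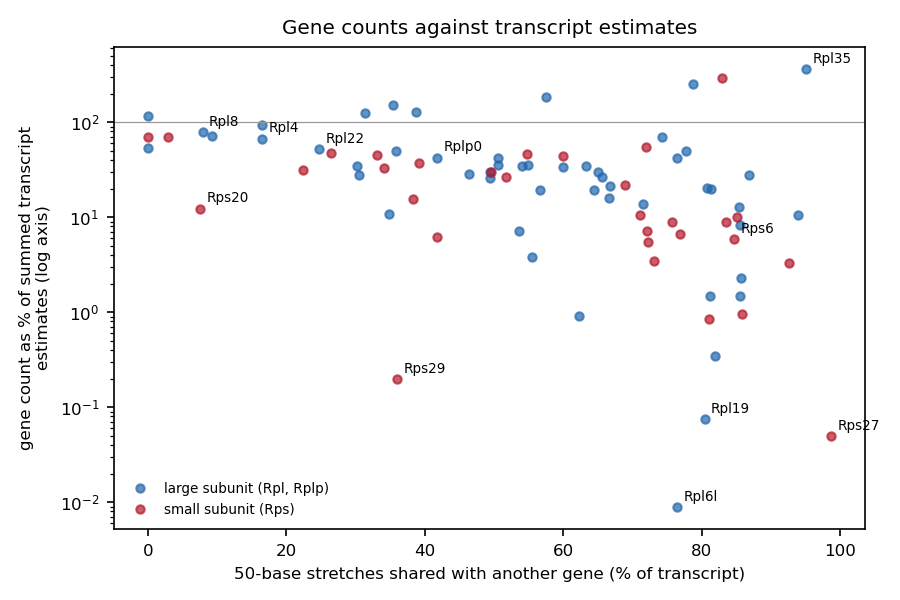
Mean gene count as a percentage of the summed transcript estimates (log axis) against the percentage of 50-base stretches of the main coding transcript that occur in another gene, 1 point for each of 83 genes (Rpl10l, with no count, is left out). Rpl4, with 16.5% shared, lies at 67.3%, while Rps27, with 98.6% shared, lies at 0.05%; Rps29 and Rps20 are low at 36.0% and 7.58% shared.

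The share of each transcript found in another gene of GENCODE M21 was counted in 50-base stretches. It ran from 0% (for example Rpl3l and Rpl39l) to 98.6% for Rps27, with a median of 59.9%, and 53 of the 84 genes were above 50%. The gene count as a percentage of the estimate had a median of 42.4% in the 31 genes with at most 50% shared, against 16.1% in the 53 above it. Across the 84 genes Spearman's rho between both percentages was -0.47, a description across genes that share libraries and are not independent. Rps20, with 12.3% of its estimate and 7.58% shared, and Rps29, with 0.20% and 36.0% shared, lay low without a high share. Rpl35 was the opposite case, with 364% of its estimate at 95.1% shared. The sources used here do not say how reads that match several genes were counted, and its part in these levels was not tested. For genes with a high share, gene counts may be split with copies and are uncertain.

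Among the paralogs Rpl10l, Rpl3l, Rpl6l and Rpl39l had next to no counts. The others averaged 6.36 RPKM (Rpl22l1), 11.8 RPKM (Rpl36al), 19.9 RPKM (Rps27l) and 27.8 RPKM (Rpl7l1). Rpl10l, known from testis, had 0 counts in all 12 libraries, Rpl3l, known from striated muscle, had 0 or 1, and Rpl39l, also known from testis, had 0 to 4. Rpl39l had 0 counts in each LC1 knockout against 2, 2 and 4 counts in the LC1 wild types, and 3, 0 and 1 counts in RKI homozygotes against 4, 3 and 1 counts in RKI wild types. Its counts are too few for a fold change to be given from them. It did not pass the filter on low counts, and in the authors' deposited table it has the smallest LC1 p of the family (log2 fold change -2.70, p = 0.000273, adjusted p = 0.507). Rpl22l1, a paralog of the RNA-binding protein Rpl22, had 2.99, 2.53 and 3.25 CPM in LC1 knockouts against 4.26, 3.11 and 3.43 CPM in LC1 wild types. It had 3.21, 2.80 and 2.63 CPM in RKI homozygotes against 3.35, 2.17 and 3.65 CPM in RKI wild types, and the groups overlapped in both experiments. Rps27l, known as a p53 target, ran from 13.5 to 20.1 CPM over the 12 libraries. Its coding sequence and that of Rps27 were aligned over 255 bases, and 194 of them (76.1%) are identical. They are printed from GENCODE M21 (GRCm38) because the partners behaved unlike each other in the gene table, and capitals mark the bases that differ.
Rps27l: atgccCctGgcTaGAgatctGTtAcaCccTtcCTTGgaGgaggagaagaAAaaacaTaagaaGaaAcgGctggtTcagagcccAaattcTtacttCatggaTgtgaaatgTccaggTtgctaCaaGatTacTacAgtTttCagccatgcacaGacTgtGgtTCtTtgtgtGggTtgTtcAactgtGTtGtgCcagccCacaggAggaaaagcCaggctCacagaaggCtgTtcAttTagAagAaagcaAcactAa
Rps27: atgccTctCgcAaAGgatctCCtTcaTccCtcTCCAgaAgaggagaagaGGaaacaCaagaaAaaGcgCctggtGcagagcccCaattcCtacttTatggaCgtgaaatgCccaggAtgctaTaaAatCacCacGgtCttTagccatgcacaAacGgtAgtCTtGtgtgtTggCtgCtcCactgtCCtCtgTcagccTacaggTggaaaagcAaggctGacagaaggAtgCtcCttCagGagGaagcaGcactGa
Of the Rps27l transcript 22.4% of the 50-base stretches occur in another gene, against 98.6% for Rps27. Among the other pairs, identity over the aligned coding bases was 84.8% for Rpl10l and Rpl10, 72.7% for Rpl22l1 and Rpl22, 87.9% for Rpl36al and Rpl36a, and 85.3% for Rpl39l and Rpl39. Rpl7l1 ran from 65.8 to 83.4 CPM and Rpl36al from 12.5 to 20.8 CPM over the 12 libraries. Rps27a, made as a fusion with ubiquitin, had 3.99 ± 0.617 CPM in LC1 knockouts and 4.44 ± 0.841 CPM in LC1 wild types (SD, n = 3 each), with overlap. Rpl41, the shortest product of the family, is printed because a transcript of it had the smallest p among the family's transcripts in LC1, given further on. The printed coding sequence is that of the coding transcript of Rpl41 with the highest estimate, which is a different transcript. It has 78 bases, with no base in capitals.
Rpl41: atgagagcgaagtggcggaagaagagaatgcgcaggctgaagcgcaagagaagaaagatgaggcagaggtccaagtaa

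The first comparison asked whether loss of the LC1 element was accompanied by a change in ribosomal protein mRNAs. None of the 79 genes tested passed an adjusted p of 0.05 in edgeR's quasi-likelihood test, and none of all 16002 genes did (0%). Most of the genes had values a little lower in the knockouts: 66 of 79 had a log2 fold change below 0, as did 51.4% of all genes, and the median was -0.11, against -0.0030 for all genes tested. DESeq2 and limma-voom called none either, with 3 genes each (3.80%) at an unadjusted p under 0.05, against 1.14% of all genes in DESeq2 and 2.06% in limma-voom. The large subunit (median -0.12, 41 of 49 below 0) and the small subunit (median -0.10, 25 of 30 below 0) had like values. All 18 genes with a mean of at least 100 CPM were below 0, between -0.16 and -0.01.

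That shift rested on 1 library. LC1 wild type 6 was the highest of the 6 LC1 libraries for 57 of the 79 genes, as it was for 26.3% of all genes. For the 18 most abundant genes it was the highest of all 12 libraries in every case. The median of the 79 genes lay 0.25 above their 12-library mean (log2 CPM) in library 6, against 0.0037, -0.08 and 0.06 in knockouts 7, 22 and 71 and against -0.02 in each of wild types 26 and 73. Without library 6 the median log2 fold change was -0.0041, with 38 genes above 0 and 41 below. The stalk gene Rplp0 shows the pattern, with 1051, 935 and 1092 CPM in the knockouts against 1350, 958 and 1009 CPM in the wild types. Its groups overlapped, and its high value was that of library 6. Rplp1 had 565, 498 and 620 CPM in the knockouts against 745, 516 and 565 CPM in the wild types, again with library 6 far above the rest.

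**Figure D2:**
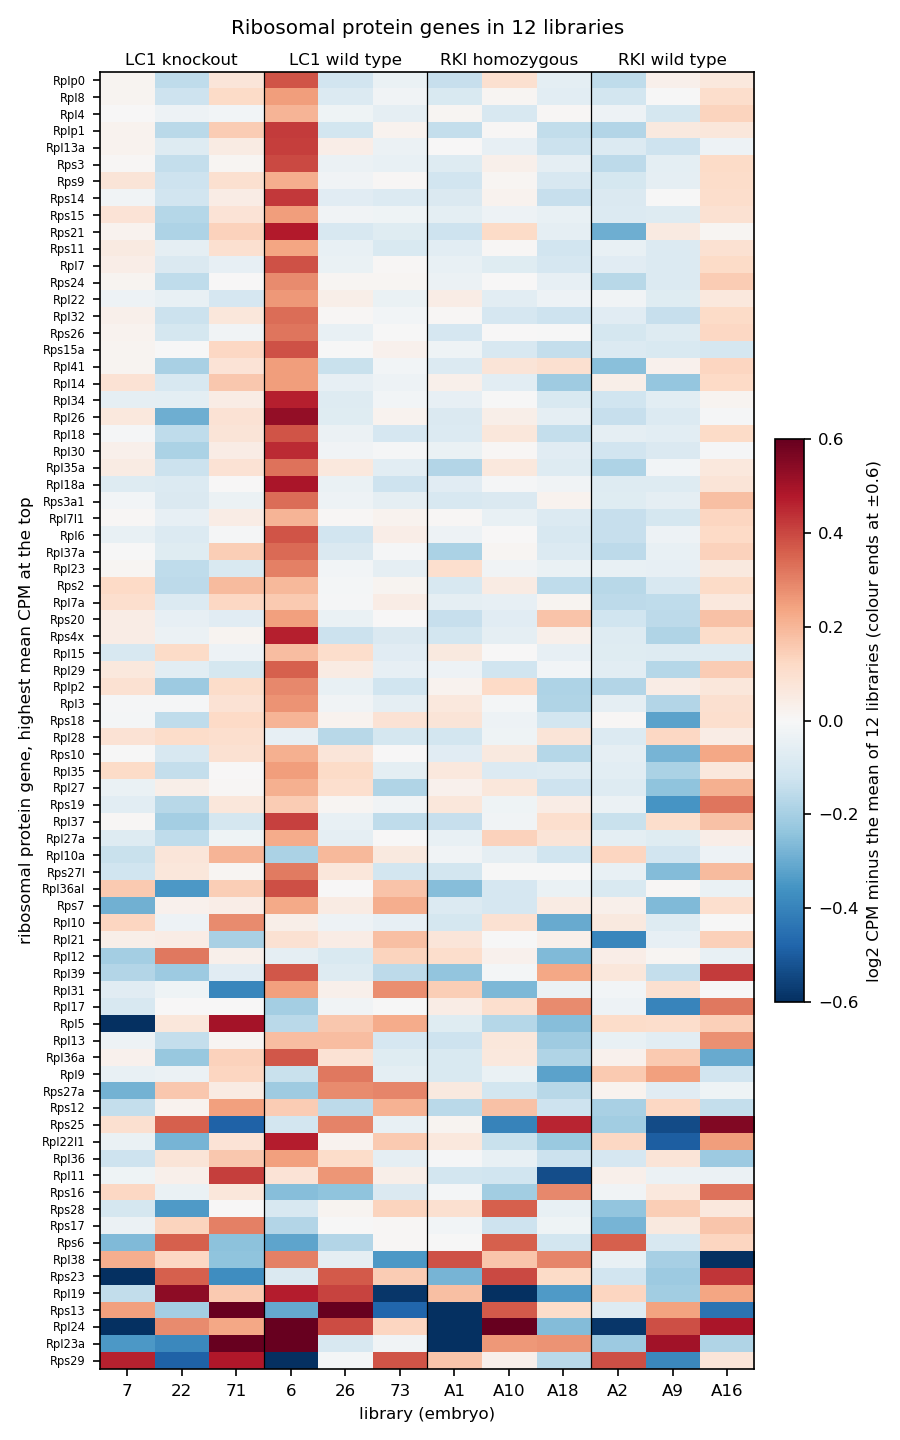
Log2 of CPM plus 0.01 minus its mean over the 12 libraries for 77 of the tested genes, ordered by mean CPM, with libraries in columns by group; colour ends at 0.6 in both directions. The column of LC1 wild type 6 is red through the abundant genes at the top, that of RKI wild type A16 is weakly red, and the low genes at the bottom scatter without a common pattern.

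**Figure D3:**
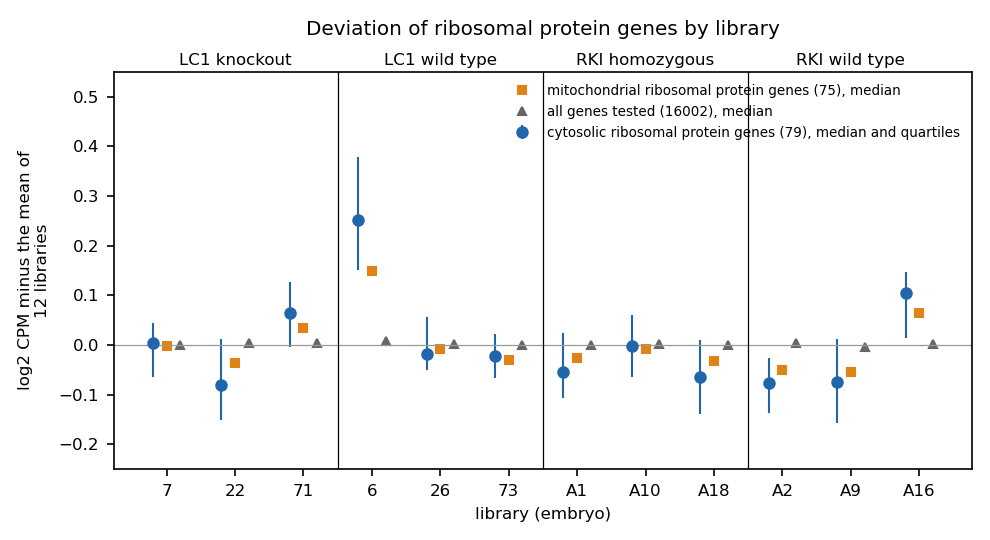
Median deviation from the 12-library mean (log2 CPM) of the 79 cytosolic ribosomal protein genes with quartiles, of 75 mitochondrial ribosomal protein genes and of all 16002 genes tested, by library and group. LC1 wild type 6 lies at 0.25 and RKI wild type A16 at 0.10 for the cytosolic genes, and the median over all genes stays at 0.01 or less in size.

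Other gene groups were also high in library 6. The 75 tested mitochondrial ribosomal protein genes had a median deviation of 0.15 there, with 66 of 75 above their mean, against -0.05 to 0.06 in the other libraries. The list of 18 translation factors also holds genes of other function, such as Npm1, and many of the mRNAs carry the same tract. Its genes summed to 11172 CPM in library 6, against 9531 to 10320 CPM in the knockouts and 9542 to 9840 CPM in the other LC1 wild types. Markers of tissues around or within the brain were also high there. The 12 microglia and macrophage markers summed to 161 to 169 CPM in the knockouts against 169 to 217 CPM in the wild types, with 217 CPM in library 6. Wild types 26 and 73 had 178.2 and 169.4 CPM, both above the highest knockout at 169.1 CPM. Of these markers 12 of 12 had a log2 fold change below 0 (C1qa, a complement gene, -0.51, SE 0.15, not past the threshold). The 12 meningeal and mesenchymal markers summed to 1533 to 1989 CPM in the knockouts against 1819 to 2154 CPM in the wild types, and the 10 choroid plexus markers to 712 to 821 CPM in the knockouts against 774 to 983 CPM in the wild types, with the upper value in library 6 in each case. Wild types 26 and 73 lay within the range of the knockouts, at 1819 and 1854 CPM for the meningeal and 816 and 774 CPM for the choroid plexus markers. Of the meningeal markers 12 of 12 were below 0, and of the choroid plexus markers 8 of 10. In edgeR's test 2 microglia (16.7%), 1 meningeal (8.33%) and 1 choroid plexus marker (10%) had an unadjusted p under 0.05, against 2.09% of all genes. How far the fold changes of these lists rest on library 6 was not tested. The erythroid markers summed to 1156 to 2216 CPM in the knockouts against 1334 to 1984 CPM in the wild types. The 10 progenitor markers were highest in library 6 of the LC1 libraries too, at 5197 CPM, against 4285 to 4745 CPM in the knockouts. So were the 10 neuron markers, at 9289 CPM, against 8722 to 9003 CPM in the knockouts and 8837 and 8404 CPM in the other LC1 wild types. No marker of these lists was at 0 in any library. Their part in the level of the ribosomal protein genes was not tested. In bulk tissue, fewer cells of a type and less RNA per cell cannot be told apart.

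The genes nearest to a change were few. At an unadjusted p under 0.05 there were 3 lower genes and 1 higher among the 79 (5.06%), against 2.09% of all genes, 1.42% lower and 0.669% higher. Rpl28, a large-subunit protein, had 30.1, 30.5 and 30.3 CPM in the knockouts against 27.3, 25.2 and 26.3 CPM in the wild types. All 3 knockouts were above all 3 wild types (log2 fold change 0.21, SE 0.076, not past the adjusted threshold), and without library 6 the log2 fold change was 0.23. Of its transcript 50.6% of the 50-base stretches occur in another gene, the annotation places Ube2s antisense to it, and the sources used here do not state the strand setting. Rpl31, near the peptide exit of the large subunit, had 5.82, 5.98 and 4.65 CPM in the knockouts against 7.24, 6.23 and 7.41 CPM in the wild types. Its groups did not overlap (log2 fold change -0.34, SE 0.14), 56.6% of its stretches are shared, and Tbc1d8 lies antisense to it. Rps7, a small-subunit protein that binds Mdm2, had 11.1, 13.8 and 13.9 CPM in the knockouts against 15.8, 14.0 and 15.7 CPM in the wild types, without overlap (log2 fold change -0.23, SE 0.11). Rpl22 had 196, 194 and 187 CPM in the knockouts against 240, 205 and 195 CPM in the wild types, and overlapped (log2 fold change -0.15, and -0.06 without library 6). The groups failed to overlap for 2 genes with all knockouts higher (Rpl28 and Rps16) and for 2 with all lower, which is 2.53% in each direction, against 3.36% higher and 3.81% lower over all genes. Next in order of p were Rpl23, Rpl30, Rpl29, Rpl7, Rps24 and Rpl13a, with log2 fold changes between -0.19 and -0.15 and overlapping groups. Without library 6 these 6 lay between -0.05 (Rps24) and -0.0060 (Rpl13a). Rps7 was at -0.13 without knockout 7. Without library 6, 1 of the 79 genes (1.27%) was at an unadjusted p under 0.05, against 1.33% of all genes.

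The second comparison put the knock-in of the human variant against its wild types. None of the 79 genes passed the adjusted threshold in edgeR's quasi-likelihood test, as none of the 16002 genes did (0%), and none had an unadjusted p under 0.05, against 1.92% of all genes (0.937% higher and 0.981% lower). DESeq2 and limma-voom gave 0 genes at either threshold. The median log2 fold change was -0.02, with 27 genes above 0 (34.2%, against 50.6% of all genes) and 52 below, and the median over all genes was 0.0012. RKI wild type A16 was the highest of the 6 RKI libraries for 50 of the 79 genes, as it was for 28.0% of all genes. Without A16 the median was 0.04, with 56 genes above 0 and 23 below. In A16 the progenitor markers summed to 5649 CPM, against 4224 to 4510 CPM in the homozygotes and 4074 and 4505 CPM in the other RKI wild types. The neuron markers were lowest in A16, at 8269 CPM, against 8913 to 9412 CPM in the homozygotes and 8853 and 9391 CPM in the other RKI wild types. The part of these markers was not tested.

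**Figure D4:**
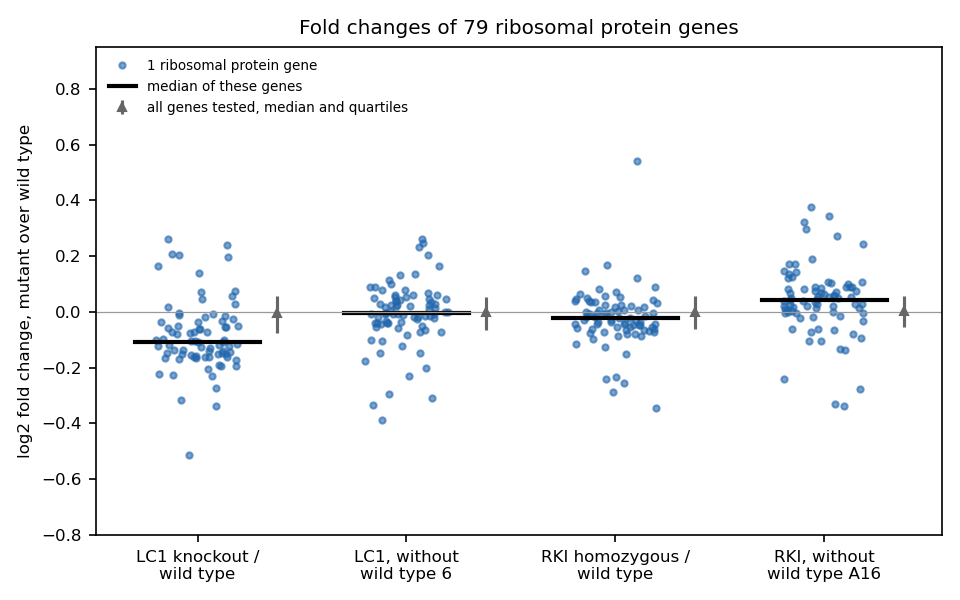
Log2 fold changes (mutant over wild type) of the 79 tested genes, 1 point each, with the median as a bar, beside the median and quartiles of all genes tested, for both mutations with all libraries and without 1 wild-type library. The LC1 median lies at -0.11 with all libraries and at -0.0041 without wild type 6, and the RKI median at -0.02 and, without wild type A16, at 0.04.

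Rpl38, a large-subunit protein known in mice for its part in translating Hox mRNAs, had the smallest p in the RKI comparison. It had 1.26, 1.08 and 1.18 CPM in the homozygotes against 0.93, 0.84 and 0.63 CPM in the wild types, and the groups did not overlap (log2 fold change 0.54, SE 0.27, not past the threshold). These values rest on a mean of 21.6 counts per library. The transcript estimates went the other way for its main isoform, Rpl38-004, with 17.5, 15.01 and 17.2 CPM in the homozygotes against 23.2, 19.4 and 22.7 CPM in the wild types. Its groups did not overlap either (log2 fold change -0.39, SE 0.079, not past the threshold). The direction for Rpl38 differed between the deposited tables, and without A16 its gene count gave 0.38. Rpl5 and Rpl11, which with 5S rRNA bind Mdm2 and stabilise p53, were lower in all homozygotes. Rpl5 had 5.42, 5.06 and 4.77 CPM in the homozygotes against 6.15, 6.14 and 6.31 CPM in the wild types (log2 fold change -0.29, SE 0.20). Rpl11 had 2.82, 2.80 and 2.10 CPM in the homozygotes against 3.11, 2.97 and 2.97 CPM in the wild types (log2 fold change -0.24, SE 0.18, and -0.10 without A18). Neither passed the threshold. Of the Rpl5 transcript 93.8% of the stretches are shared with another gene, and Fam69a lies antisense to it. Of the Rpl11 transcript 62.2% are shared, and its coding transcripts held 4.96% of its estimate. The gene counts of Rpl5 and Rpl11 may therefore be split with copies and are uncertain. In the LC1 experiment Rpl5 had a log2 fold change of -0.04 and Rpl11 of 0.02, and the groups overlapped. The groups did not overlap for 2 genes with the homozygotes higher (Rpl38 and Rpl15) and 2 with them lower (Rpl5 and Rpl11), 2.53% in each direction, against 2.59% higher and 3.07% lower over all genes. Rpl15, a large-subunit protein, had a log2 fold change of 0.08 (SE 0.073, and 0.05 without A1), and Nkiras1 lies antisense to it. Rpl9, Rpl17, Rpl13, Rpl27a, Rpl21 and Rpl19 followed in order of p, with log2 fold changes from -0.34 for Rpl19 to 0.17 for Rpl17 and overlapping groups. Single libraries moved all of these but Rpl9 by more than 1.5 times: the value ran from 0.03 (without A9) to 0.32 (without A16) for Rpl17, from -0.29 (without A9) to -0.02 (without A16) for Rpl13, from 0.03 (without A9) to 0.14 (without A16) for Rpl27a, from -0.03 (without A2) to 0.27 (without A16) for Rpl21 and from -0.57 (without A1) to -0.21 (without A18) for Rpl19.

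The difference between both mutations was tested directly. No gene of the 79 and none of the 16002 (0%) differed between the RKI and LC1 effects past the adjusted threshold in edgeR's quasi-likelihood test. At an unadjusted p under 0.05 there was 1 gene, Rpl28, against 2.42% of all genes (1.21% higher and 1.21% lower), with the RKI effect lower by 0.25 (log2, SE 0.11). The median difference, RKI effect minus LC1 effect, was 0.09, with 60 genes above 0 (75.9%, against 52.1% of all genes), and 0.0069 for all genes. DESeq2 gave 0 genes at either threshold, and limma-voom 0 called and 1 at the unadjusted one. Next in order of p, with this difference in brackets, were Rpl27a (0.24), Rpl23 (0.19), Rpl15 (0.16), Rps7 (0.23), Rpl30 (0.23), Rpl22 (0.14), Rpl10 (-0.24), Rpl21 (0.26) and Rpl31 (0.27). Without LC1 wild type 6 the median difference was -0.02, and the difference was 0.15 for Rpl27a, 0.06 for Rpl23, 0.10 for Rpl15, 0.05 for Rpl30 and 0.05 for Rpl22. Without LC1 knockout 7 it was 0.13 for Rps7, and over the libraries left out it ran from -0.37 (without A9) to -0.14 (without A18) for Rpl10, from 0.10 (without A2) to 0.41 (without A16) for Rpl21 and from 0.16 (without LC1 knockout 71) to 0.40 (without A9) for Rpl31.

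Within the RKI libraries 4 males were compared with 2 females. In edgeR's quasi-likelihood test 1 of 79 genes (1.27%) passed the threshold, against 8 of 16002 (0.05%), of which 6 were higher (0.0375%), and without A9 or on a gene's summed transcript estimates none of the family did.

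Rps25 (log2 fold change 0.71, SE 0.25) and Rps19 (0.29, SE 0.11), 2 small-subunit proteins, had an unadjusted p under 0.05 without passing the threshold, and 3 genes (3.80%) in all, each higher in males, had such a p, against 5.18% of all genes, 3.08% higher. Rps18 (0.19), Rpl17 (0.30), Rps12 (-0.31), Rps7 (0.21), Rpl22l1 (0.37), Rpl24 (-0.83) and Rpl4 (0.13) were next in order of p. There were 2 females, and leaving out either of them moved most of these values. Without the wild-type female A9 the log2 fold change was 0.08 for Rps19, 0.02 for Rps18, 0.07 for Rpl17, 0.09 for Rps7, 0.05 for Rpl22l1 and -1.37 for Rpl24. Without the homozygous female A10 it was 0.50 for Rps19, 0.37 for Rps18, 0.54 for Rpl17, 0.32 for Rps7, 0.68 for Rpl22l1 and -0.37 for Rpl24. No single library moved Rps25, Rps12 or Rpl4 by more than 1.5 times. Trappc4 and Ccdc84 lie antisense to Rps25. Males and females did not overlap for 7 genes with the males higher (8.86%, against 9.27% of all genes) and 5 with them lower (6.33%, against 8.13%). The median log2 fold change was 0.0040, with 41 genes above 0 and 38 below, against 49.7% of all genes above 0 and 50.3% below. The X-linked members gave no common direction: the log2 fold change was 0.11 for Rps4x, 0.22 for Rpl39, -0.09 for Rpl10 and -0.24 for Rpl36a. Rps4x had 57.0, 62.8, 58.3 and 66.3 CPM in the males, against 59.2 and 54.3 CPM in the females, and overlapped.

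RKI wild types were lastly set against LC1 wild types, a contrast in which line, experiment and litter cannot be told apart. LC1 wild types were all female, while RKI wild types held 2 males and 1 female (A9). The fold changes are therefore at the female level and rest on the sex term estimated from the RKI libraries. Overlap was read on CPM without that term. None of the 79 genes passed the adjusted threshold in edgeR's quasi-likelihood test, against 2 of 16002 (0.0125%). At an unadjusted p under 0.05 there were 9 genes (11.4%), all lower in RKI wild types, against 2.44% of all genes lower, 1.46% higher and 3.89% in either direction. DESeq2 gave 7 such genes (8.86%, against 2.51% of all genes) and limma-voom 9 (11.4%, against 4%), and neither called any. Among the 9 genes were Rps18, Rps7, Rps15a, Rpl29, Rpl35, Rpl13a, Rpl22l1 and Rpl7a, with log2 fold changes from -0.51 for Rpl22l1 to -0.19 for Rpl7a, and RKI wild types overlapped LC1 wild types for all of these but Rps15a. Rpl32 followed with -0.22. Without A9 the log2 fold change was -0.07 for Rps18, -0.19 for Rps7 and -0.10 for Rpl22l1, and 0 of the 79 genes had an unadjusted p under 0.05, against 4.02% of all genes. Without LC1 wild type 6 it was -0.10 for Rps15a, -0.13 for Rpl29, -0.09 for Rpl13a and -0.09 for Rpl32, and 4 genes (5.06%) had such a p, against 3.46% of all genes. Rpl35 and Rpl7a moved by less than 1.5 times whichever library was left out. The median over the 79 genes was -0.13, with 14 above 0 (17.7%, against 47.9% of all genes) and 65 below (82.3%, against 52.1%), and, without LC1 wild type 6, -0.0085. The groups did not overlap for 1 gene higher (1.27%, against 3.36%) and 3 lower (3.80%, against 4.23%).

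Single transcripts of the family were tested too. Of 345 transcripts of the 84 genes, 294 were tested among 47772, and none passed in either mutation, as none of the 47772 did (0%). At an unadjusted p under 0.05 there were 9 in LC1 (3.06%, against 2.97% of all transcripts) and 12 in RKI (4.08%, against 2.45%), and limma-voom gave 6 in LC1 (2.04%, against 3.08% of all transcripts) and 15 in RKI (5.10%, against 3.21%). Rpl41-001, 0.196% of the estimate of Rpl41 on average, had the smallest p in LC1, with 3.81, 1.93 and 2.47 CPM in the knockouts against 0.75, 0.61 and 1.24 CPM in the wild types. The groups did not overlap (log2 fold change 1.64, SE 0.38, not past the threshold). The gene count of Rpl41 was 92.2 ± 8.91 CPM in the knockouts and 96.7 ± 13.4 CPM in the wild types (SD, n = 3 each), with overlap. In RKI the smallest p was that of Rpl23a-001 (log2 fold change -1.31, SE 0.24, not past the threshold), while the gene count of Rpl23a gave -0.13. By estimate, 88.5% of the family's transcripts were protein coding and 5.95% retained introns, while for 15 of the 84 genes the coding transcripts held under 50%. Rps24, whose mRNA is spliced into alternative 3′ ends, gave 2 tested isoforms. Rps24-201 held 92.5% of the estimate on average (90.6% to 94.4%), with 745.6 ± 73.5 CPM in LC1 knockouts and 769.9 ± 108 CPM in LC1 wild types, beside 755.8 ± 73.7 CPM in RKI homozygotes and 761.0 ± 62.3 CPM in RKI wild types (SD, n = 3 each). Rps24-202 had 56.5, 48.4 and 47.0 CPM in LC1 knockouts against 88.5, 55.7 and 49.6 CPM in LC1 wild types, where 88.5 CPM is library 6. Neither isoform passed in either comparison, and the groups overlapped.

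Genes around the family were described from lists of known members, and none of them passed the adjusted threshold of edgeR's test in any comparison. Rpsa, Fau and Rack1 are among the ribosomal proteins that the symbol rule does not take. Rack1, a scaffold of the small subunit, had 823.9 ± 54.6 CPM in LC1 knockouts and 864.4 ± 119 CPM in LC1 wild types, beside 804.1 ± 41.7 CPM in RKI homozygotes and 827.3 ± 68.6 CPM in RKI wild types (SD, n = 3 each). Of all genes tested, 51.4% had a log2 fold change below 0 in the LC1 comparison and 49.4% in the RKI comparison. In the list of 18 translation factors, which includes genes of other function, 14 were below 0 in LC1 (median -0.05) and 14 in RKI (median -0.03). None of the 18 had an unadjusted p under 0.05 in either. Npm1, a nucleolar chaperone, was nearest to a change in LC1 (-0.16, SE 0.077), and Pabpc1, the poly(A)-binding protein, in RKI (-0.11, SE 0.068). Of 30 genes of ribosome biogenesis, 18 were below 0 in LC1 and 21 in RKI, with 0 and 1 at that p, where Polr1a, the catalytic subunit of RNA polymerase I, was nearest (-0.19, SE 0.070). Of 14 tested regulators of growth and ribosomal protein synthesis, 10 were above 0 in LC1, with Mycn at 0.12 (SE 0.065), and 6 in RKI, with Trp53 at -0.10 (SE 0.062). The 15 listed regulators had their lowest sum of any library in LC1 wild type 6, at 1350 CPM. It was 1413 to 1483 CPM in the LC1 knockouts and 1416 and 1413 CPM in the other LC1 wild types. The mitochondrial ribosomal protein genes had a median log2 fold change of -0.03 in LC1, with 48 of 75 below 0 and 7 (9.33%) at an unadjusted p under 0.05, against 2.09% of all genes. Without LC1 wild type 6 their median was 0.03, with 27 of 75 below 0 and 0 at that p, against 1.33% of all genes in edgeR's test, and none passed the adjusted threshold with all libraries. In RKI the median was -0.0017, with 38 of 75 below 0 and 1 (1.33%) at that p, against 1.92% of all genes.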

How the data were processed

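The authors deposited whole-number counts per gene, RPKM per gene, estimated counts per transcript that are not whole numbers, and their own comparisons with log2 fold changes and p-values. Per the submitters' processing notes, the tools were STAR 2.0.4b, edgeR, limma, Subread and featureCounts 1.4.5, with no role for any of them. The sources used here do not give the genome build, annotation, strand setting, treatment of reads with several matches or the estimator of transcripts. The gene table lists 41264 rows for 40690 IDs, and 574 rows that repeat an ID with the same values were dropped.

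For gene counts the test was edgeR's quasi-likelihood F test (version 4.0.16, R 4.3.3), with TMM scaling, filterByExpr by group, robust dispersions and Benjamini-Hochberg adjustment over all 16002 genes at 0.05. All 12 libraries entered 1 fit of 4 group means and a sex term (7 residual degrees of freedom, biological coefficient of variation 6.94%). The sex term was estimated from the RKI libraries, since LC1 embryos are all female. Rounded transcript estimates were tested in the same way. Log2 deviations use a prior count of 2. The fit was also run on simulated counts, with larger changes than most described here and without a shift of a single library. That run therefore does not gauge small shifts or those of 1 library. Alternatives were other scalings, no filter, DESeq2 1.42.0, limma 3.58.1 (voom), single experiments, no sex term and each library left out. A fit on transcript estimates summed per gene was added after the data were examined. The authors' RKI comparison is wild type minus homozygous, and its sign was turned. P-values measure the spread between single embryos of a group.

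Members, lists and tests were chosen with earlier results of these data known. Named for each comparison are genes past the threshold, or those with the smallest p until 10 are named, the 5 highest and 5 lowest by RPKM, the classes described (stalk, paralogs and partners, Rps27a, X-linked, Rpl5 and Rpl11, Rps24, Rpl41), and up to 3 genes of each list; some genes that the rule takes are not reported here. Rps16, Rps20, Rps29, Rps15, Rpl35 and the single transcripts other than those of Rps24 were singled out after their values were seen, since they fall outside the rule where they are named. Shared stretches of 50 bases were counted on both strands against all GENCODE M21 transcripts, with the coding transcript of highest estimate for each gene and its 3′ A run removed.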

Additional observations from a re-analysis of the deposited data

How the results depend on the processing

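No ribosomal protein gene passed the adjusted threshold for LC1, RKI, their difference or the line contrast under any alternative run (edgeR, DESeq2 or limma-voom), and no transcript of them did for LC1 or RKI. For LC1 without the filter on low counts, 18 of 83 genes (21.7%, against 2.39% of all genes) had an unadjusted p under 0.05, against 4 of 79 with it (5.06%, against 2.09%). The authors' deposited table has 17 of 83 genes under it (20.5%, against 4.32% of its genes), with none past an adjusted p of 0.05. Between sexes 10 of 83 did without the filter (12%, against 5.15%) and 11 of 80 on summed transcript estimates (13.8%, against 4.90%), beside 3 of 79 (3.80%, against 5.18%). In the line contrast 19 of 83 did without the filter (22.9%, against 3.56%) and 4 of 79 without the sex term (5.06%, against 3.90%), beside 9 of 79 (11.4%, against 3.89%). Over the libraries left out, genes under that p numbered 1 (without wild type 6, 1.27%, against 1.33% of all genes) to 11 (without wild type 73, 13.9%, against 4.42%) for LC1, with 10 without wild type 26 (12.7%, against 2.77%), 0 to 2 (without A16, 2.53%, against 1.61%) for RKI, 0 to 5 (without wild type 73, 6.33%, against 4.04%) for their difference, 1 (without A9, 1.27%, against 2.60%) to 7 (without A10, 8.86%, against 11.8%) between sexes and 0 (without A9, against 4.02%) to 17 (without A16, 21.5%, against 7.33%) between lines. Between RKI males and females 1 gene was called under every scaling, without the filter, in DESeq2, in limma-voom and in the RKI libraries alone, against 0 on summed transcript estimates, and 0 (without RKI wild type A9) to 1 over the libraries left out.

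Over the libraries left out, the median log2 fold change ran from -0.15 to -0.0041 for LC1, from -0.06 to 0.04 for RKI, from -0.021 to 0.16 for their difference, from -0.04 to 0.06 between sexes and from -0.17 to -0.0085 between lines, with the ends nearest 0 for LC1 and the lines, and the lower end for the difference, without LC1 wild type 6. On summed transcript estimates, an alternative added after the data were examined, the direction turned for Rpl38 (-0.17) and Rpl17 (-0.42) in RKI, for Rps12 (0.043) and Rpl24 (0.20) between sexes and for Rpl35 (0.087) and Rpl13a (0.0070) between lines, and the median between sexes was 0.08. Rpl21 in RKI ran from -0.033 to 0.27, with the lower end without A2. The cause was not tested. No paired analysis was possible because the groups share no replicate numbers and no label names the litters. For low genes depth limits the comparison: 32 of the 84 genes had a mean under 10 CPM.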
